A study of Homo sapiens with 22 samples.

Results

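Aminoacyl-tRNA synthetases were examined in LN308 cells under endoplasmic reticulum (ER) stress. The set holds 35 genes of 58278 gene entries in the count files: 19 cytosolic enzymes (symbols ending in 1, with FARSA and FARSB) and 16 mitochondrial enzymes (symbols ending in 2). Members follow a rule on gene names, but they were chosen with earlier results of these data known. All 35 passed the filter on low counts in both assays. LN308 is a glial cell line from a human astrocytoma that lacks p53, and this deficiency is shared by all groups. Tunicamycin, which blocks N-glycosylation, was given at 2.5 µg/ml for 2 h and for 6 h, with 3 libraries per time and assay. Thapsigargin, which blocks the calcium pump of the ER, was given at 200 nM for 2 h and for 6 h, with 1 library per time and assay. The comparison was with 3 libraries per assay of cells labelled untreated at 0 h, and the treatment protocol names the solvent DMSO alone as the control. Each condition was read by RNA-Seq of total RNA and by Ribo-Seq, which counts the mRNA fragments that ribosomes protect, called footprints here. A cycloheximide step, which stalls ribosomes, is stated for every footprint library, untreated ones included, and for no RNA library. Comparisons of footprints with RNA therefore also differ in this step, and its part in them was not tested.

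Aminoacyl-tRNA synthetases join each amino acid to its tRNA before translation. One nuclear gene set serves the cytosol and another, whose products are imported, serves the mitochondrion, while GARS1 (glycine) and KARS1 (lysine) supply both compartments. ER stress activates the kinase PERK, which phosphorylates eIF2 and thereby favours translation of the transcription factor ATF4. ATF4 is known for inducing genes of amino acid synthesis and uptake and many cytosolic synthetase genes through C/EBP-ATF response elements.

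RNA libraries held 101371822 to 166586145 counts and footprint libraries 4387173 to 29183769. Members had 142 to 167654 RNA counts per library and 1 to 7852 footprint counts, the lowest of both belonging to SARS2 (mitochondrial serine). Untreated RNA replicate 1 stood apart, with 53489 genes detected against 38264 to 40331 in the other RNA libraries and a TMM scaling factor of 1.46 against 0.904 to 1.06. In that library 0 of 19 cytosolic members lay above the untreated mean, and their median difference from it was -0.42 on the log2 scale. Of 11 glial markers, 8 were at 1 CPM or more in untreated RNA (CPM are counts scaled to a common library total), with VIM, CD44 and NES high and AQP4, ALDH1L1 and SOX9 averaging under 1 CPM. The glial sum was 2737 to 3857 CPM at 6 h of tunicamycin, against 1489 to 4391 CPM in untreated RNA. The median glial log2 fold change at 6 h was -1.13, with 3 of 11 above 0. Of the 11, 1 was called higher, beside 1.23% of all genes. All 6 blood cell markers were under 1 CPM in each group. The summed level of 5 neuronal markers was 154.9 to 197 CPM at 6 h of tunicamycin, against 60.0 to 107 CPM in untreated RNA, and SYT1 carried this (log2 fold change 1.50, not called), the other 4 having values below 0. That of 5 epithelial markers was 84.6 to 138 CPM at 6 h, against 55.8 to 70.4 CPM in untreated RNA, carried by the keratins KRT18 (0.76) and KRT8 (0.41), neither called, with the other 3 averaging under 1 CPM. The part of these sums in the results was not tested. Whether the libraries of a group are separate cultures is not given in the sources used here. The p-values therefore measure the spread between libraries, which may be technical. In bulk RNA, fewer cells of a type and less RNA per cell cannot be told apart.

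After 6 h of tunicamycin, 8 cytosolic synthetase RNAs rose and no mitochondrial one was called. By edgeR's quasi-likelihood test with Benjamini-Hochberg adjustment over 41130 genes, 8 of 19 cytosolic RNAs rose at an adjusted p under 0.05, where 1.23% of all genes rose, and 0 of 19 fell, where 0.275% of all genes fell. The 8 were GARS1, WARS1, AARS1, CARS1, SARS1, YARS1, IARS1 and EPRS1, with log2 fold changes of 1.17 to 2.10. Of 16 mitochondrial RNAs, 0 were called in either direction by edgeR or by DESeq2, and 1 had an unadjusted p under 0.05 in edgeR, beside 17.4% of all genes. The median log2 fold change was 1.25 in the cytosolic set and 0.22 in the mitochondrial set, against -0.27 over all genes tested. Without untreated replicate 1 these medians were 1.04, 0.19 and -0.012, over a smaller number of genes tested. Groups did not overlap, with all 6 h libraries above all untreated ones, for 16 of 19 cytosolic and 6 of 16 mitochondrial members, beside 10.5% of all genes.

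**Figure D1:**
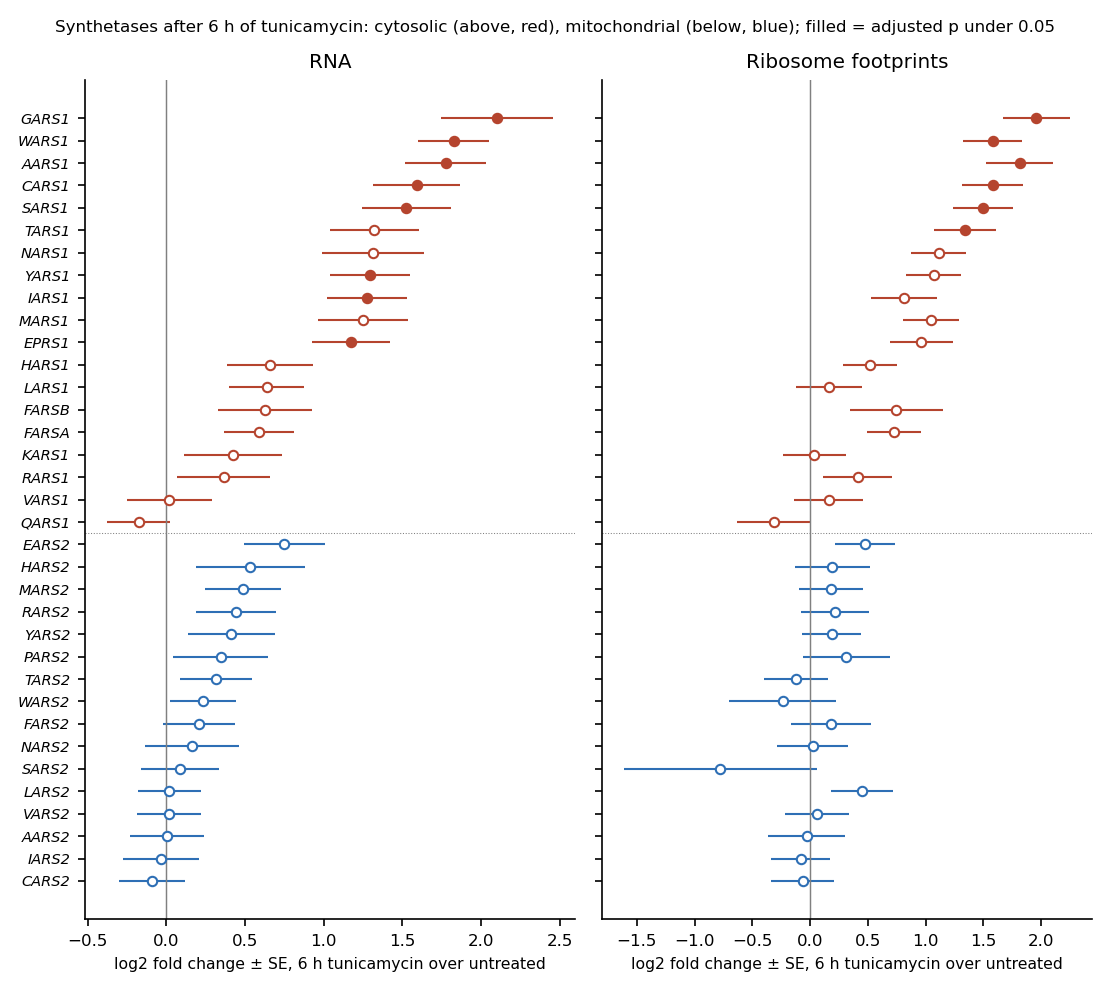
Log2 fold change of each synthetase at 6 h of tunicamycin over untreated cells in RNA (left) and footprints (right), with bars of 1 standard error. Cytosolic genes stand above the dotted line and mitochondrial genes below it, and filled points passed an adjusted p under 0.05. The 8 filled RNA points and 6 filled footprint points are all cytosolic.

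GARS1, which charges glycine tRNA in both compartments, had the largest rise of the set. Its RNA stood at 1105, 951 and 1118 CPM in the 6 h tunicamycin libraries, against 118, 304 and 319 CPM in untreated libraries. All 6 h libraries lay above all untreated ones, and untreated replicate 1 was the low library. The log2 fold change was 2.10 ± 0.36 (SE; adjusted p = 0.0189, edgeR), and it was 1.77 without untreated replicate 1. Footprints on GARS1 numbered 693, 647 and 716 CPM in the 6 h tunicamycin libraries, against 119.5, 179.7 and 230.0 CPM in untreated libraries, a log2 fold change of 1.96 ± 0.29 (adjusted p = 0.00806, edgeR).

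WARS1, the tryptophan enzyme, is also known as an interferon-inducible gene. Its RNA stood at 583, 406 and 475 CPM in the 6 h tunicamycin libraries, against 135, 130.5 and 147 CPM in untreated libraries. The untreated libraries lay close together here, and the log2 fold change was 1.82 ± 0.22 (adjusted p = 0.0033, edgeR). WARS1 footprints stood at 515, 467 and 539 CPM in the 6 h tunicamycin libraries, against 187, 142 and 179 CPM in untreated libraries (log2 fold change 1.58 ± 0.25, adjusted p = 0.0123, edgeR). AARS1, which charges alanine tRNA, had 757, 554 and 601 CPM in the 6 h tunicamycin libraries, against 136, 229.9 and 193 CPM in untreated libraries. Its log2 fold change was 1.77 ± 0.26 (adjusted p = 0.00831, edgeR), with no overlap between groups. AARS1 footprints stood at 567, 529 and 559 CPM in the 6 h tunicamycin libraries, against 151, 149 and 171 CPM in untreated libraries (log2 fold change 1.81 ± 0.29, adjusted p = 0.0115, edgeR).

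CARS1, the cysteine enzyme, had RNA at 182, 159.7 and 182 CPM in the 6 h tunicamycin libraries, against 37.5, 63.1 and 73.3 CPM in untreated libraries. The groups did not overlap, and its log2 fold change was 1.59 ± 0.28 (adjusted p = 0.0207, edgeR). CARS1 footprints stood at 138, 138 and 152 CPM in the 6 h tunicamycin libraries, against 38.4, 44.2 and 60.6 CPM in untreated libraries (log2 fold change 1.58 ± 0.26, adjusted p = 0.0143, edgeR). SARS1 charges serine tRNA and also acts on selenocysteine tRNA. SARS1 RNA stood at 457, 345 and 405 CPM in the 6 h tunicamycin libraries, against 85.6, 167 and 167 CPM in untreated libraries, with untreated replicate 1 again the low library (log2 fold change 1.52 ± 0.28, adjusted p = 0.027, edgeR). SARS1 footprints stood at 293, 320.0 and 324 CPM in the 6 h tunicamycin libraries, against 90.8, 109.6 and 132 CPM in untreated libraries, a non-overlapping rise of 1.50 ± 0.26 on the log2 scale (adjusted p = 0.018, edgeR).

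YARS1 (tyrosine), IARS1 (isoleucine) and EPRS1, a fused enzyme for glutamate and proline, passed the test in RNA and not in footprints. YARS1 RNA stood at 403, 319 and 357 CPM in the 6 h tunicamycin libraries, against 98.7, 173 and 168 CPM in untreated libraries (log2 fold change 1.30 ± 0.26, adjusted p = 0.0352, edgeR). IARS1 RNA stood at 901, 606 and 652 CPM in the 6 h tunicamycin libraries, against 233, 339 and 318 CPM in untreated libraries (1.28 ± 0.25, adjusted p = 0.0364, edgeR). EPRS1 RNA stood at 619, 432 and 498 CPM in the 6 h tunicamycin libraries, against 181, 255 and 250.4 CPM in untreated libraries (1.17 ± 0.25, adjusted p = 0.0459, edgeR). In all 3 the 6 h RNA values lay above the untreated ones. Their footprint log2 fold changes were 1.07 ± 0.24 for YARS1, 0.82 ± 0.29 for IARS1 and 0.96 ± 0.27 for EPRS1, also with no overlap between groups (adjusted p = 0.0623, 0.273 and 0.163 in that order, edgeR). TARS1, the threonine enzyme, was the reverse case. Its footprints stood at 294, 270.3 and 301 CPM in the 6 h tunicamycin libraries, against 126, 97.9 and 117 CPM in untreated libraries (log2 fold change 1.34 ± 0.27, adjusted p = 0.0375, edgeR). TARS1 RNA stood at 592, 364 and 416 CPM in the 6 h tunicamycin libraries, against 130.0, 210.4 and 208 CPM in untreated libraries (1.32 ± 0.29, adjusted p = 0.0511, edgeR), so its RNA missed the threshold narrowly at a similar size. None of these differences between assays passed a test of its own, as given with the translational efficiency results.

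**Figure D2:**
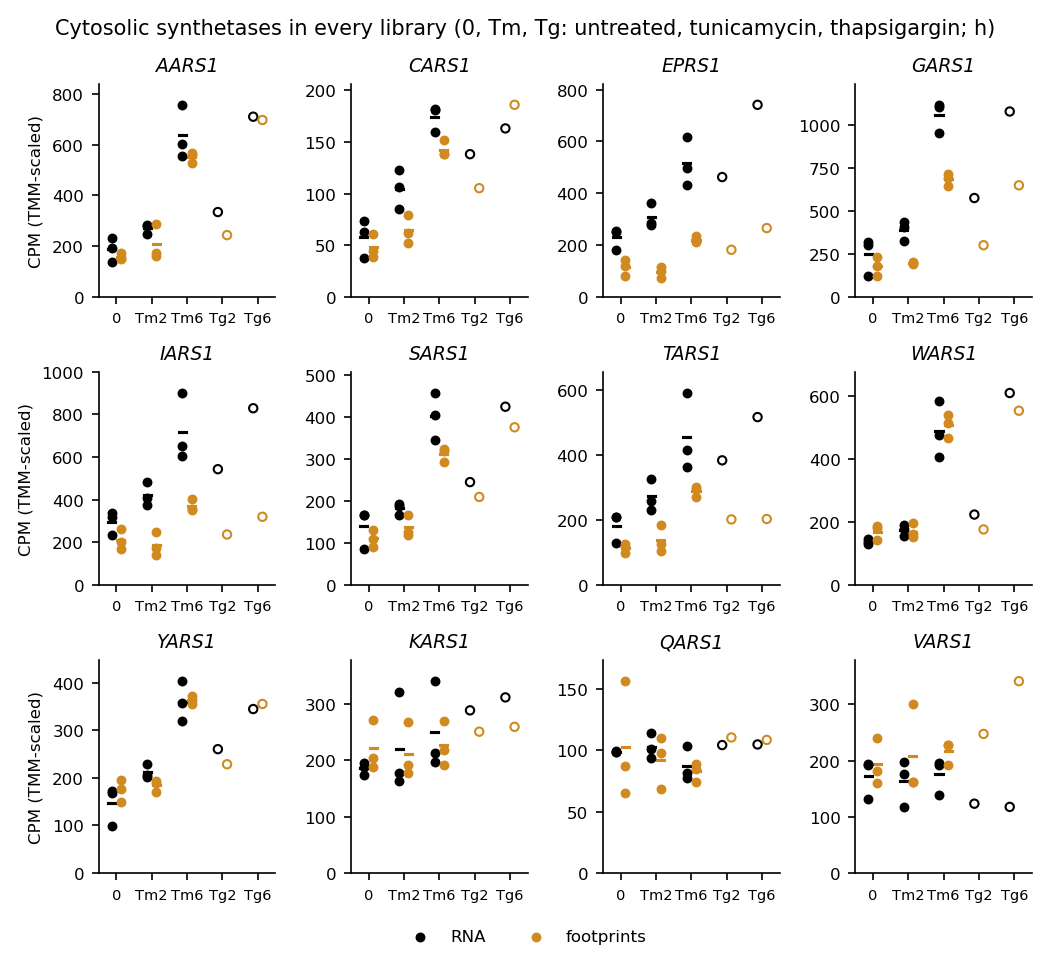
TMM-scaled CPM of 12 cytosolic synthetases in each library, with RNA in black and footprints in orange; groups run from untreated through 2 h and 6 h of tunicamycin (Tm) to 2 h and 6 h of thapsigargin (Tg). Filled points are replicate libraries with a bar at their mean, open points are single libraries, and every axis starts at 0. GARS1, WARS1 and AARS1 separate at 6 h in both assays, while the groups overlap for QARS1 and VARS1.

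Several of these RNA calls were lost when 1 library was left out, and fewer of all genes were then called. AARS1 and WARS1 were called with any 1 library of the comparison left out, and under all 14 alternatives tried. EPRS1, IARS1, SARS1 and YARS1 kept their call without untreated replicate 1 and lost it without any of the other 5 libraries (highest adjusted p 0.143, 0.102, 0.101 and 0.119 in that order, edgeR). With 1 of those 5 left out, 0.429% to 0.662% of all genes were called higher, against 1.23% with all libraries. GARS1 lost its call without untreated replicate 2, or without 6 h replicate 1 or 3 (highest 0.0743), and CARS1 without untreated replicate 2 or any 6 h replicate (highest 0.0841). EPRS1 also lost its call with counts scaled by library size alone, and EPRS1 and IARS1 with the compared groups fitted alone. Leaving out untreated replicate 1 gave 10 called cytosolic RNAs, beside 2.36% of all genes higher. Replicates 2 and 3 alone gave 14 cytosolic and 2 mitochondrial RNAs, EARS2 (log2 fold change 0.54) and MARS2 (0.40), all of them higher, beside 10.4% of all genes higher and 7.37% lower. The mitochondrial count of 2 of 16 is near that share.

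The other cytosolic members fell into a middle and a low range. NARS1 (asparagine, 1.31 ± 0.32) and MARS1 (methionine, 1.25 ± 0.29) had RNA log2 fold changes like those of the called members and missed the threshold (adjusted p = 0.0864 and 0.064, edgeR). The annotated span of MARS1 overlaps that of DDIT3, the stress transcription factor CHOP, whose RNA log2 fold change was 4.85, and reads of overlapping genes cannot be told apart here. HARS1 (histidine), LARS1 (leucine), FARSB and FARSA, the paired subunits of the phenylalanine enzyme, ran from 0.59 to 0.66, with no overlap between groups and no call.

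KARS1, RARS1 (arginine), VARS1 (valine) and QARS1 (glutamine) were the lowest of the cytosolic set in RNA. KARS1 RNA stood at 340.2, 196 and 212 CPM in the 6 h tunicamycin libraries, against 174, 196 and 189 CPM in untreated libraries, with 6 h replicate 1 the high library (log2 fold change 0.42 ± 0.31, adjusted p = 0.446, edgeR). RARS1 had a log2 fold change of 0.36 ± 0.30. VARS1 RNA stood at 139, 196 and 192 CPM in the 6 h tunicamycin libraries, against 132, 192 and 195 CPM in untreated libraries, with full overlap between groups (0.020 ± 0.27, adjusted p = 0.973, edgeR). QARS1 RNA was the single cytosolic value below 0, at 104, 81.3 and 77.4 CPM in the 6 h tunicamycin libraries, against 98.4, 98.8 and 99.2 CPM in untreated libraries (-0.18 ± 0.20, adjusted p = 0.627, edgeR). With the replicate number as a block and untreated replicate 1 left out, QARS1 RNA was called lower (log2 fold change -0.27, adjusted p = 0.0312, edgeR), the opposite direction to the 14 other cytosolic members called in that fit. That fit called 12.1% of all genes higher and 11.8% lower, so 1 of 19 lower is below the share of all genes. QARS1 footprints stood at 89.2, 74.3 and 84.9 CPM in the 6 h tunicamycin libraries, against 156, 64.9 and 87.3 CPM in untreated libraries, where untreated replicate 1 was high and the groups overlapped (-0.31 ± 0.32). KARS1 and VARS1 footprints overlapped as well, at 0.037 ± 0.27 and 0.16 ± 0.30. GARS1 and KARS1, both of which serve the mitochondrion too, thus stood at the top and among the 4 lowest of the cytosolic range in RNA.

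KARS1 and QARS1 belong to the multi-synthetase complex, in which 7 members of the set (EPRS1, IARS1, LARS1, MARS1, QARS1, RARS1 and KARS1) are held together by the scaffold proteins AIMP1, AIMP2 and EEF1E1. In RNA at 6 h, 2 of 7 complex members were called higher and 6 of 12 cytosolic members outside it, beside 1.23% of all genes, with median log2 fold changes of 0.64 and 1.32. In footprints the counts were 0 of 7 and 6 of 12, beside 0.67% of all genes, with medians of 0.41 and 1.23. Of the 3 scaffold genes 0 were called in either assay, with log2 fold changes of 0.46 to 0.70 in RNA and 0.32 to 0.65 in footprints. Synthetases also fall into classes I and II by the fold of their catalytic domain. Class I held 5 of 10 called cytosolic RNAs (median 1.21) and class II 3 of 9 (median 1.31), while in footprints the counts were 2 of 10 (median 0.89) and 4 of 9 (median 1.11), beside the same shares of all genes.

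For mitochondrial synthetase RNAs at 6 h of tunicamycin, log2 fold changes ran from -0.091 (CARS2, cysteine) to 0.75 (EARS2, glutamate), and 14 of 16 lay above 0, although the median of 0.22 became -0.089 when counts were scaled by library size alone, which moved the median of all genes to -0.58. EARS2 RNA stood at 75.8, 49.0 and 51.5 CPM in the 6 h tunicamycin libraries, against 33.7, 38.4 and 32.8 CPM in untreated libraries. Those groups did not overlap (log2 fold change 0.75 ± 0.26, adjusted p = 0.202, edgeR), and 6 h replicate 1 was the high library. HARS2, the histidine enzyme, had RNA at 81.8, 43.2 and 45.4 CPM in the 6 h tunicamycin libraries, against 40.0, 41.0 and 36.7 CPM in untreated libraries, and again replicate 1 was high (0.53 ± 0.34, adjusted p = 0.386, edgeR). CARS2 RNA stood at 48.9, 49.1 and 49.7 CPM in the 6 h tunicamycin libraries, against 40.8, 54.9 and 61.6 CPM in untreated libraries, with the 6 h values inside the untreated range (-0.091 ± 0.21). IARS2, for isoleucine, had RNA at 246, 179.6 and 190.0 CPM in the 6 h tunicamycin libraries, against 164, 226 and 241 CPM in untreated libraries (-0.036 ± 0.24), and was called lower (-0.31, adjusted p = 0.0131, edgeR) with the replicate block and without untreated replicate 1, where EARS2 was called higher (0.51, adjusted p = 0.00232, edgeR). These counts of 1 of 16 in each direction stand beside 12.1% of all genes higher and 11.8% lower in that fit.

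In footprints the mitochondrial range at 6 h was -0.78 to 0.48, with a median of 0.12. By edgeR 0 of 16 were called and 0 had an unadjusted p under 0.05, beside 12.1% of all genes, and DESeq2 called 0. EARS2 footprints stood at 60.2, 56.5 and 35.6 CPM in the 6 h tunicamycin libraries, against 38.0, 38.3 and 33.0 CPM in untreated libraries, with 6 h replicate 3 inside the untreated range. LARS2, the leucine enzyme, had 38.6, 38.0 and 35.2 CPM in the 6 h tunicamycin libraries, against 24.2, 29.7 and 28.1 CPM in untreated libraries, the single mitochondrial member of 16 whose footprint groups did not overlap, beside 9.54% of all genes (0.45 ± 0.27, adjusted p = 0.546, edgeR). LARS2 RNA overlapped, at 51.2, 42.0 and 40.4 CPM in the 6 h tunicamycin libraries, against 41.4, 46.7 and 43.8 CPM in untreated libraries (0.019 ± 0.20). SARS2 was measured poorly, with 0.139, 1.46 and 3.24 CPM in the 6 h tunicamycin libraries, against 3.04, 2.75 and 2.59 CPM in untreated libraries, and 6 h replicate 1 held 1 read (-0.78 ± 0.83). WARS2, the tryptophan enzyme, had 5.57, 6.70 and 7.37 CPM in the 6 h tunicamycin libraries, against 8.62, 4.59 and 9.93 CPM in untreated libraries, with full overlap (-0.24 ± 0.47).

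**Figure D3:**
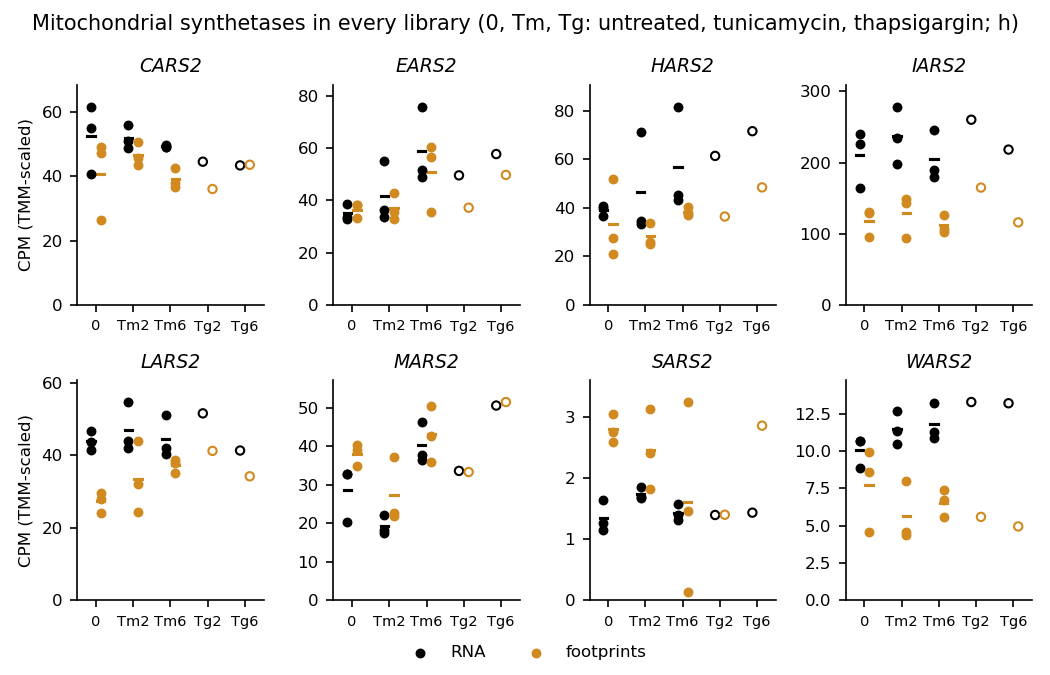
TMM-scaled CPM of 8 mitochondrial synthetases in each library, drawn as for the cytosolic enzymes, with RNA in black and footprints in orange. At 6 h of tunicamycin EARS2, HARS2, MARS2 and WARS2 lie above all untreated libraries in RNA, and LARS2 does in footprints. The other genes drawn overlap the untreated libraries at 6 h. MARS2 RNA is lowest at 2 h of tunicamycin (17.5 to 22.3 CPM), and SARS2 stays under 4 CPM in every library.

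For 15 pairs of a cytosolic gene and the mitochondrial gene for the same amino acid (FARSA and FARSB each paired with FARS2), the cytosolic member had the larger 6 h log2 fold change in 14 pairs in RNA and in 14 in footprints. The median gap was 0.88 in both assays. Alanine had the widest gap in RNA, 1.77 for AARS1 and 0.0023 for AARS2, with 1.81 and -0.027 in footprints. Serine's gap in footprints, 1.50 for SARS1 and -0.78 for SARS2, rests on the 6 h library with 1 SARS2 read, since SARS2 was at -0.25 and SARS1 at 1.54 without it. The exceptions were arginine in RNA, 0.36 for RARS1 and 0.44 for RARS2, and leucine in footprints, 0.16 for LARS1 and 0.45 for LARS2. Valine showed almost no gap, 0.020 for VARS1 and 0.018 for VARS2 in RNA. These gaps are descriptions and carry no test.

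Footprints at 6 h gave nearly the same order of members as RNA. With p-values adjusted over 19411 genes, 6 of 19 cytosolic members rose (GARS1, AARS1, CARS1, WARS1, SARS1 and TARS1), where 0.67% of all genes rose, and 0 of 35 members fell, where 0.17% of all genes fell. The cytosolic median was 0.96, the mitochondrial 0.12 and that of all genes -0.068. All 19 cytosolic and 15 of 16 mitochondrial members had footprint and RNA log2 fold changes within 0.5 of each other. Across the 19 cytosolic genes Pearson's r was 0.955 and Spearman's rho 0.97, and across the 16 mitochondrial genes they were 0.46 and 0.55, given as descriptions across genes that share libraries. Same-numbered libraries deviated together, and with the replicate number as a block 10 cytosolic members were called higher, adding NARS1, MARS1, YARS1 and EPRS1, beside 1.7% of all genes. Leaving out a library other than untreated replicate 1 lowered the calls here too, among members and among all genes. Without untreated replicate 2, 0 members were called, beside 0.16% of all genes higher, and without untreated replicate 3, 2 beside 0.178%. Without 6 h replicate 2, 1 was called beside 0.232%, and without 6 h replicate 3, 1 beside 0.223%. GARS1 was called in 5 of the 6 possible omissions. TARS1 also lost its footprint call with counts scaled by library size alone.

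**Figure D4:**
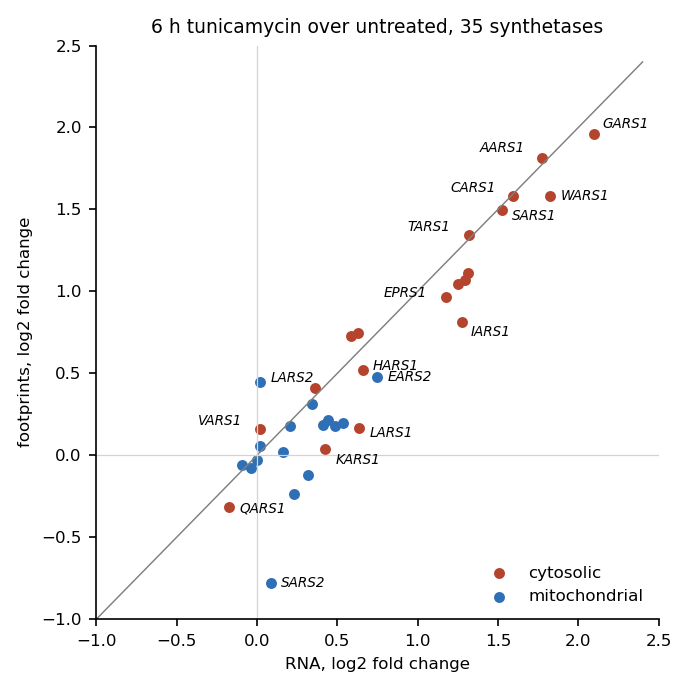
Log2 fold change at 6 h of tunicamycin over untreated cells in footprints against RNA for the 35 synthetases, cytosolic in red and mitochondrial in blue, with the line of equal change. Cytosolic points lie along the line up to GARS1 (2.10 in RNA, 1.96 in footprints), and SARS2 lies farthest from it.

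Translational efficiency compares footprints with RNA, and whether footprints changed more or less than RNA was tested as an assay-by-group interaction with edgeR's quasi-likelihood method. At 6 h against untreated cells 0 of 35 members and 0 of 18500 genes (0% in each direction) had an adjusted p under 0.05, while 3.71% of all genes and 0 members had an unadjusted p under 0.05. The cytosolic median was -0.016 and the mitochondrial -0.017, on the log2 scale. The cytosolic members ran from -0.32 (IARS1) to 0.27 (FARSA), and the largest mitochondrial value was 0.58 ± 0.28 for LARS2 (unadjusted p = 0.0586, edgeR). GARS1 was at -0.049 ± 0.41 and WARS1 at -0.088 ± 0.28, with standard errors larger than the differences. At 2 h against untreated cells the cytosolic median was -0.19, and EPRS1 had the lowest value, -0.57 ± 0.31 (unadjusted p = 0.0883, edgeR). Again 0 of 18500 genes passed, and 3.92% of genes and 0 members had an unadjusted p under 0.05. The same counts were 0, 2.32% and 0 for 6 h against 2 h, where 17 of 19 cytosolic values lay above 0 with a median of 0.20. In every group EPRS1 had the lowest footprint-to-RNA ratio of the cytosolic set, -1.71 at 2 h and -1.21 at 6 h of tunicamycin, against -1.04 in untreated cells (log2 of CPM ratios).

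At 2 h of tunicamycin no synthetase was called in either assay. In RNA 0 of 35 passed, beside 0.00973% of all genes higher and 0% lower, and 2 (CARS1 and MARS2) had an unadjusted p under 0.05, beside 8.06% of all genes. The cytosolic median log2 fold change was 0.39 and the mitochondrial 0.17, against -0.17 over all genes. Without untreated replicate 1 the cytosolic median was 0.23 and that of all genes 0.039, over a smaller number of genes tested. With 1 library left out the mitochondrial median ran from -0.0073 to 0.27. CARS1 had the highest value. Its RNA stood at 84.7, 107 and 123 CPM at 2 h, against 37.5, 63.1 and 73.3 CPM in untreated libraries, with no overlap (0.85 ± 0.27, adjusted p = 0.548, edgeR). GARS1 followed with 325, 405 and 437 CPM at 2 h, against 118, 304 and 319 CPM in untreated libraries (0.66 ± 0.34). Groups were apart for 10 of 19 cytosolic RNAs, beside 3.44% of all genes, although replicates 2 and 3 alone gave calls for CARS1 and GARS1 only among the cytosolic members, 2 of 19 beside 2.62% of all genes higher. MARS2, the mitochondrial methionine enzyme, had a value below 0 in RNA, at 22.3, 18.4 and 17.5 CPM at 2 h, against 20.5, 32.9 and 32.8 CPM in untreated libraries (-0.57 ± 0.24, adjusted p = 0.548, edgeR). MARS2 and PARS2 (proline) were called lower at 2 h with replicates 2 and 3 alone, at -0.85 and -0.83 (adjusted p = 0.00414 and 0.0295, edgeR), beside 1.68% of all genes lower. In footprints at 2 h the medians were 0.087 for cytosolic and 0.0042 for mitochondrial members, and 0 of 35 were called beside 0% of all genes. Of the 35, 0 had an unadjusted p under 0.05, beside 3.19% of all genes, and DESeq2 also called 0 in both assays.

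For cytosolic footprints the median log2 fold change of 6 h over 2 h of tunicamycin was 0.98, where that of 2 h over untreated cells was 0.087. AARS1, GARS1 and WARS1 footprints were higher at 6 h than at 2 h, 3 of 19 cytosolic members beside 0.608% of all genes, and 0 of 35 members were lower, beside 0.144% of all genes. GARS1 footprints stood at 693, 647 and 716 CPM at 6 h, against 195, 192 and 201 CPM at 2 h (1.80 ± 0.29, adjusted p = 0.0148, edgeR). WARS1 footprints stood at 515, 467 and 539 CPM at 6 h, against 160.3, 151 and 197 CPM at 2 h (1.58 ± 0.25, adjusted p = 0.0148, edgeR). The 2 h libraries overlapped the untreated ones for both genes. AARS1 footprints stood at 567, 529 and 559 CPM at 6 h, against 161, 172 and 286 CPM at 2 h, with 2 h replicate 3 the high library (1.42 ± 0.28, adjusted p = 0.041, edgeR). With the replicate block 10 cytosolic members were called higher, adding CARS1, EPRS1, IARS1, MARS1, SARS1, TARS1 and YARS1, beside 1.67% of all genes. In RNA 0 of 35 members fell, beside 0.153% of all genes, and 1 rose, WARS1, beside 0.588% of all genes (1.49 ± 0.22, adjusted p = 0.0157, edgeR), and with the block AARS1 was called too (1.25, adjusted p = 0.0466, edgeR), beside 1.68% of all genes. WARS1 RNA stood at 583, 406 and 475 CPM at 6 h, against 154, 178 and 188 CPM at 2 h. Calls fell to 0 in RNA without 2 h replicate 2, 2 h replicate 3 or 6 h replicate 3. In those fits 0.0876%, 0.0536% and 0.146% of all genes were called higher. Member calls fell to 0 in footprints without 2 h replicate 2, 6 h replicate 2 or 6 h replicate 3, beside 0.131%, 0.16% and 0.154% of all genes. Median log2 fold changes of 6 h over 2 h were 0.74 cytosolic and 0.021 mitochondrial in RNA, and 0.98 and 0.028 in footprints.

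Summed over the set, cytosolic synthetase RNA stood at 7259 ± 1159 CPM after 6 h of tunicamycin and 4151 ± 378 CPM after 2 h, against 3141 ± 663 CPM in untreated cells (SD, n = 3 each). Mitochondrial sums were 729 ± 121 CPM at 6 h and 704 ± 130.3 CPM at 2 h, against 641 ± 72.5 CPM in untreated cells. The cytosolic to mitochondrial ratio within each library does not depend on the scaling factor. In RNA it was 9.83, 9.73 and 10.3 at 6 h of tunicamycin and 5.35, 6.29 and 6.25 at 2 h, against 4.26, 5.21 and 5.11 in untreated libraries. In footprints it was 10.2, 9.13 and 10.4 at 6 h and 5.40, 5.06 and 5.14 at 2 h, against 5.14, 5.04 and 5.51 in untreated libraries. The 6 h libraries thus lay apart from the rest in both assays, while the 2 h libraries lay above the untreated ones in RNA and among them in footprints. Members took 0.664% to 0.855% of all RNA counts at 6 h of tunicamycin, against 0.411% to 0.431% in untreated libraries.

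**Figure D5:**
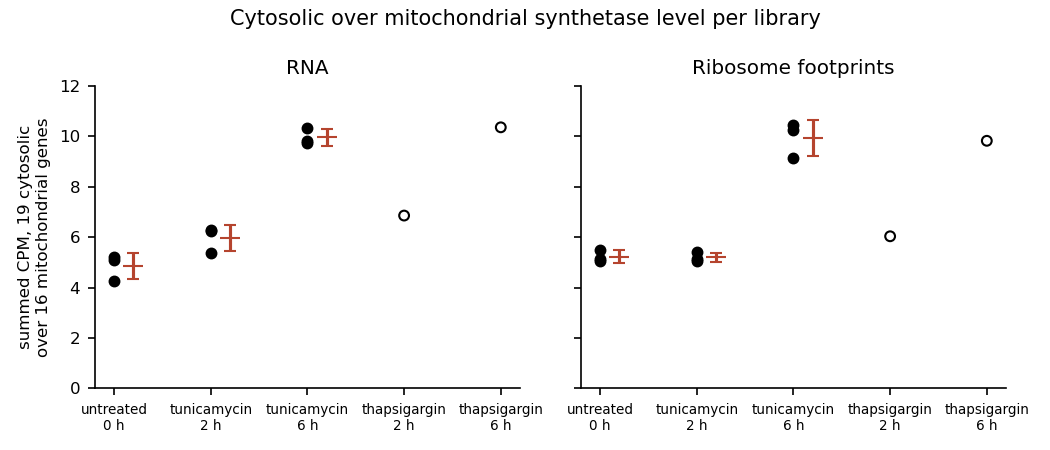
Summed CPM of the 19 cytosolic over that of the 16 mitochondrial synthetases in each library, for RNA (left) and footprints (right). Points are libraries, open where a group has 1 library, and red bars give mean ± SD. All 6 h tunicamycin libraries lie at 9.13 or above, and all 2 h tunicamycin and untreated libraries at 6.29 or below.

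Thapsigargin gave a similar picture, read from 1 library per time and therefore without a test. A member is counted where it lay past a 2-fold change from the untreated mean. At 6 h this held for 11 of 19 cytosolic RNAs, beside 10.5% of all genes higher and 25.9% lower, and for 0 of 16 mitochondrial RNAs. In footprints it held for 10 of 19 cytosolic and 0 of 16 mitochondrial members, beside 13.2% of all genes higher and 22.9% lower. The medians were 1.46 cytosolic and 0.30 mitochondrial in RNA, and 1.02 and 0.38 in footprints. GARS1 RNA was 1079 CPM at 6 h of thapsigargin, WARS1 609 CPM and AARS1 710.2 CPM, which are log2 differences of 2.26, 2.15 and 1.96 from the untreated means. For tunicamycin, which shares the untreated libraries, the corresponding log2 fold changes were 2.10, 1.82 and 1.77. The summed ratio of cytosolic to mitochondrial level was 10.4 in RNA and 9.82 in footprints.

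VARS1 and then IARS1 had the widest gaps between assays among cytosolic members at 6 h of thapsigargin. VARS1 RNA was 118 CPM at 6 h of thapsigargin, below all untreated libraries (132, 192 and 195 CPM), while VARS1 footprints were 341 CPM, above all untreated ones (240.1, 159.5 and 181 CPM). IARS1 RNA differed from the untreated mean by 1.50 and its footprints by 0.62 on the log2 scale. QARS1 stayed near the untreated mean in both assays, at 0.083 and 0.17. At 2 h of thapsigargin 5 of 19 cytosolic RNAs were past 2-fold, beside 7.54% of all genes higher and 23.6% lower, with GARS1 at 1.35, CARS1 at 1.31, NARS1 at 1.24, TARS1 at 1.10 and EPRS1 at 1.03. In footprints 1 was, CARS1 at 1.16, beside 9.27% of all genes higher and 15.5% lower. WARS1 footprints at 2 h differed by 0.067 and at 6 h by 1.72.

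Genes near the synthetases in function were read from the same comparison at 6 h of tunicamycin. Of 20 genes of amino acid synthesis and uptake, 11 rose in RNA and 11 in footprints, beside 1.23% and 0.67% of all genes, with medians of 1.79 and 1.48. ASNS, asparagine synthetase, was at 2.46 ± 0.40 in RNA and 2.46 ± 0.36 in footprints (adjusted p = 0.0154 and 0.00718, edgeR). Of 10 genes accessory to charging, XPOT, which exports tRNAs from the nucleus, was the 1 that rose in RNA (1.50 ± 0.28, adjusted p = 0.0262, edgeR), and 0 were called in footprints. Of 8 mitochondrial translation factors, 0 were called in either assay, with medians of 0.34 in RNA and 0.18 in footprints. Of 7 listed stress genes, 6 rose in RNA and 5 in footprints. ATF4 itself was at 1.63 ± 0.30 in RNA (adjusted p = 0.0256, edgeR) and 1.41 ± 0.30 in footprints (adjusted p = 0.0534, edgeR). EIF2AK4, also on that list, is the kinase GCN2 that senses uncharged tRNA, and it was not called, at 0.27 and -0.13.

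Promoters of both sets were searched for the core of the C/EBP-ATF response element, TGATGNAA, on both strands. RefSeq windows from 250 bases before to 50 after the start (GRCh38.p14) were found for 16 of 19 cytosolic and 14 of 16 mitochondrial members. LARS1, VARS1, YARS1, AARS2 and VARS2 had no window and were not searched. The letters occurred in 7 of 16 cytosolic genes, 1 of 14 mitochondrial genes and 6 of 15 genes of amino acid synthesis and uptake, against 1217 of 27305 genes overall (4.46%). The 8 matching stretches are shown because they carry this difference between the sets. Each is 30 bases of the gene's own strand, 5′ to 3′, with the match in capitals, printed as its reverse complement where it lies on the opposite strand.
AARS1: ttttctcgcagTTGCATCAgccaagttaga
CARS1: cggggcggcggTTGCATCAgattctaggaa
GARS1: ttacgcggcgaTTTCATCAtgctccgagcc
IARS1: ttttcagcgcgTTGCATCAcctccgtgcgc
MARS1: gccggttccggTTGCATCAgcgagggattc
NARS1: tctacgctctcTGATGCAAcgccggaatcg
TARS1: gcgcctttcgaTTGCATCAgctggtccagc
YARS2: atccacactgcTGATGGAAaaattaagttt

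The AARS1 stretch lies at chr16:70289675-70289704 (minus strand), CARS1 at chr11:3057407-3057436 (minus), GARS1 at chr7:30594834-30594863 (plus) and IARS1 at chr9:92293692-92293721 (minus). MARS1 lies at chr12:57488053-57488082 (plus), NARS1 at chr18:57621804-57621833 (minus), TARS1 at chr5:33440956-33440985 (plus) and YARS2 at chr12:32756076-32756105 (minus). In 6 of the 7 cytosolic genes the variable base gives TTGCATCA or its complement TGATGCAA, GARS1 being the exception with TTTCATCA. The match ran from base -187 to -180 in AARS1 and -197 to -190 in YARS2, counted from the start site, and began within 33 bases of it in the other 6. All 7 cytosolic genes with a match had RNA log2 fold changes of 1.25 to 2.10 at 6 h, while WARS1, SARS1 and EPRS1, which rose in RNA, held no match in these windows. YARS1 also rose in RNA and could not be searched. YARS2, the mitochondrial gene with a match, had 0.41 ± 0.28 (adjusted p = 0.407, edgeR). The unfolded protein response element TGACGTGG occurred in 1 cytosolic gene (CARS1) and 1 mitochondrial gene (CARS2), against 0.927% of all genes, and the ER stress response element in 0 of either, against 0.0916%. A match is a description of letters and not evidence of binding.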

How the data were processed

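The deposited files, 1 per library, hold unnormalized whole-number counts per gene entry, which the authors made from reads. Per the submitters' processing notes STAR 2.5.4b, HTSeq, DESeq2 and the build GRCh38 were used. The strand setting of the counting is not given in the sources used here, so reads of overlapping or antisense genes and of near-identical copies cannot be told apart. Per the labels' protocols, ribosomes were stalled by 5 min in 0.1 mg/ml cycloheximide, and fragments of 27 to 33 nt were kept. Symbols came from the NCBI and RefSeq tables, which matched 57437 of 58278 entries and all 113 genes of the lists used.

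Each assay's 11 libraries were fitted together in edgeR 4.0.16 under R 4.3.3 (filterByExpr at a minimum count of 10, TMM scaling, robust quasi-likelihood test, Benjamini-Hochberg adjustment over all genes tested, call at an adjusted p under 0.05). CPM are scaled by TMM, and SE is the log2 fold change over the root of the F statistic. Translational efficiency was fitted over all 22 libraries. Thapsigargin values are log2 CPM differences with a prior count of 2. DESeq2 1.42.0, other scalings, no filter, the compared groups alone, left-out libraries and a block on the replicate number were tried as alternatives. The fits were also run on simulated data. Those libraries were drawn independently, without an outlying untreated library or shared replicate deviations, so they cannot check the calls against either. CPM were not divided by length, so levels of different synthetases were not ranked. The summed ratio of the sets and the ranking of EPRS1 by footprint-to-RNA ratio do compare genes, and neither was corrected for length.

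Replicate numbers come from the labels, which do not say what they mark. Same-numbered libraries had correlated deviations from their group means, at 0.109 to 0.676, apart from replicate 2 of 2 h tunicamycin RNA against untreated RNA at 0.0757, which lies under the minimum of 0.1 set for pairing. Members, lists, tests and alternatives were chosen with earlier results of these data known. Values in every library are given for members called at 6 h and for the 2 highest and 2 lowest of each set and assay, and other members are named for a subgroup, a partner or a single value.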

Additional observations from a re-analysis of the deposited data

Results flagged for a closer look

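Effects of tunicamycin at 6 h and at 2 h differed by a direct test for 3 cytosolic synthetases, all by edgeR's quasi-likelihood test and all higher at 6 h in 3 of 3 libraries. In RNA the log2 difference of 6 h over 2 h was 1.49 for WARS1 (adjusted p = 0.0157, edgeR). In footprints it was 1.80 for GARS1, 1.58 for WARS1 and 1.42 for AARS1 (adjusted p = 0.0148, 0.0148 and 0.041 in that order, edgeR).

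For 3 other members every 6 h library lay above the untreated mean and every 2 h library below it. MARS2 RNA differed by 1.05 between 6 h and 2 h on the log2 scale, and the direct test missed the threshold by edgeR (adjusted p = 0.0923) and passed it by DESeq2 (adjusted p = 0.00198). LARS1 footprints differed by 0.55 (adjusted p = 0.548, edgeR). Its untreated mean is raised by replicate 1, at 267 CPM where replicates 2 and 3 had 136 and 146 CPM, and 2 h replicate 1 lay above those 2 at 155 CPM. YARS2 footprints differed by 0.45 (adjusted p = 0.593, edgeR). Its untreated mean is lowered by replicate 2, at 25.6 CPM where replicates 1 and 3 had 38.8 and 35.6 CPM, and 6 h replicate 1 lay below those 2 at 35.1 CPM.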

How the results depend on the processing

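For 6 h of tunicamycin over untreated cells, the 8 calls in RNA became 17 with the replicate block and without untreated replicate 1, 16 with replicates 2 and 3 alone, and 2 to 10 with 1 library left out. All genes called in either direction were 1.5% as reported, 23.9% with the block and without untreated replicate 1, and 17.7% with replicates 2 and 3 alone. With 1 library left out they were 0.455% to 3.09%. The 6 calls in footprints became 10 with the replicate block, 11 with the block and without untreated replicate 1, 11 with replicates 2 and 3 alone, 10 by DESeq2, and 0 to 6 with 1 library left out. In that order 2.53%, 4.08%, 2.32%, 4.32% and 0.176% to 0.886% of all genes were called in either direction, against 0.84% as reported. For 2 h over untreated cells, 0 calls in RNA became 3 with the block and without untreated replicate 1, and 4 with replicates 2 and 3 alone, beside 2.54% and 4.3% of all genes. For 6 h over 2 h, the 1 call in RNA became 2 with DESeq2 size factors, 3 with library size alone, 2 with no filter, 2 with the replicate block, 5 with the compared groups alone, 22 with replicates 2 and 3 alone, 7 by DESeq2, and 0 to 1 with 1 library left out. The 22 were all higher (17 cytosolic and 5 mitochondrial), beside 12.6% of all genes higher and 10.9% lower, and DESeq2 called 3.24% of all genes higher. In either direction, all genes called were 0.742% as reported, 0.751% with DESeq2 size factors, 0.547% with library size alone and 0.641% with no filter. They were 2.73% with the block, 2.66% with the compared groups alone, and 0.056% to 0.543% with 1 library left out. The 3 calls in footprints became 7 with no filter, 10 with the replicate block, 11 with replicates 2 and 3 alone, 11 by DESeq2, and 0 to 4 with 1 library left out. In that order 1.34%, 2.39%, 3.84%, 2.83% and 0.157% to 0.857% of all genes were called in either direction, against 0.752% as reported. The block alone moved no other count of calls by over 1.5 times, and no efficiency fit called a member. Past a 2-fold change at 2 h of thapsigargin, library size alone gave 2 RNAs in place of 5 and 4 footprint members in place of 1, and leaving out 1 untreated library gave 2 to 9 RNAs and 1 to 3 footprint members.

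The cytosolic minus the mitochondrial median, on the log2 scale, kept its sign except for footprints at 2 h. There the value of 0.083 was -0.16 with the block and without untreated replicate 1, -0.11 with replicates 2 and 3 alone, and -0.027 to 0.23 with 1 library left out. At 6 h over untreated cells it was 1.03 in RNA, against 0.86 with the block and without untreated replicate 1, 0.85 with replicates 2 and 3 alone, and 0.85 to 1.19 with 1 library left out. In footprints it was 0.84, against 0.88 with the replicate block, 0.71 with the block and without untreated replicate 1, 0.66 with replicates 2 and 3 alone, and 0.74 to 0.92 with 1 library left out. For 6 h over 2 h it was 0.72 in RNA, against 0.63 with replicates 2 and 3 alone and 0.58 to 0.77 with 1 library left out. In footprints it was 0.95, against 0.92 with the replicate block, 0.84 with replicates 2 and 3 alone, and 0.83 to 0.96 with 1 library left out. For RNA at 2 h it was 0.061 to 0.32 with 1 library left out. The cause of these changes was not tested. With library size alone, 298 genes rose and 118 fell in RNA at 6 h, against 504 and 113 with TMM. Footprint depth limits SARS2, whose lowest library held 1 read.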

Other observations

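At 2 h of tunicamycin the translational efficiency of all 7 multi-synthetase complex members was below 0, with a median of -0.34 on the log2 scale. The 12 other cytosolic members had 4 values above 0 and a median of -0.16. Values below 0 were not particular to the complex. Class I cytosolic members, which include every complex member but KARS1, had 1 of 10 above 0 and a median of -0.35. Of the 7 listed stress genes 0 lay above 0, with a median of -0.38. Mitochondrial members had 9 of 16 above 0 and a median of 0.12, and the median over all genes was -0.017. By edgeR 0 of 35 members passed an adjusted p under 0.05 in this comparison and 0 had an unadjusted p under 0.05. The complex was looked at here after its values were seen, and the difference between these medians was not tested. Among untreated libraries, replicate 1 had the lowest RNA for every complex member. It also had the highest footprints for EPRS1, IARS1, KARS1, LARS1, QARS1 and RARS1, and the lowest for MARS1. QARS1 footprints were 156 CPM there against 64.9 and 87.3 CPM, and LARS1 footprints 267 CPM against 136 and 146 CPM. The part of replicate 1 in the values below 0 was not tested.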
